A study of Macaca mulatta with 4 samples.

Results

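The extracellular proteases of the metzincin clan and their inhibitors were described in RF/6A, a cell line of rhesus macaque labelled as chorioretinal. Members were all rows of the deposited table paired with a rhesus symbol of the matrix metalloproteinase (MMP), ADAM, ADAMTS or TIMP families, each a family name followed by a number, plus RECK. This gave 62 genes of the 21314 rows, with 23 MMP, 17 ADAMTS, 18 ADAM and 3 TIMP genes. Another 5 names of these families (TIMP3, ADAMTS4, ADAMTS19, ADAM29 and ADAM32) matched no row, and 6660 rows carry no symbol, so these 5 were treated as not measured.

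The study sequenced total RNA from 4 libraries titled Static1 to Static4, called libraries 1 to 4 here. All came from RF/6A bought from a cell bank and grown in Dulbecco's medium with 10% heat-inactivated fetal bovine serum, penicillin and streptomycin, with no other treatment. They form 1 group without a control cell type, so no contrast between conditions could be made. The labels do not say whether the libraries came from separate cultures, and every SD describes the spread between these 4 libraries only.

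MMPs cut collagens and other matrix proteins. They are made as inactive precursors, most are secreted, and the membrane-type members stay anchored at the cell surface. ADAMTS proteases are secreted and process procollagens, proteoglycans and fibrillin-associated proteins, whereas ADAMs are transmembrane proteins, many of which release the outer parts of receptors and growth factors. TIMPs are small secreted proteins that bind the active sites of these enzymes, and RECK is an inhibitor anchored to the membrane. Mesenchymal cells are known as sources of MMP2, MMP14 and TIMPs. RNA levels say nothing of precursor activation or of enzyme activity.

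Total estimated counts were between 20366946 and 20550610 per library, and the 62 members took between 0.154% and 0.210% of them. Library 2 stood apart from the other 3 across the whole table. Dixon's test compares the gap next to the most extreme value with the whole range. It singled out library 2 for 4117 of the 12453 genes that average 1 CPM or more (CPM, counts scaled to a common library size), and each of the others for at most 37. Ribosomal protein genes took 15.0% of its counts against 6.08% to 6.66% elsewhere. What sets library 2 apart was not tested. Values are therefore given for each library, with means also without library 2. Of the markers of the labelled site, 2 of 3 matched retinal pigment epithelium genes reached 1 CPM throughout (RPE65 and BEST1, while RLBP1 had 2 counts in all), 1 of 6 endothelial genes (PECAM1) and 1 of 3 melanocyte genes (PMEL, with TYR at 0), against 7 of 7 fibroblast and mesenchymal genes.

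CPM were scaled by edgeR's TMM method and not divided by transcript length. They compare a gene between libraries, and a long transcript collects more counts than a short one, so levels of different genes are not ranked here. A gene was called expressed when none of its 4 values was under 1 CPM. By that rule 30 of the 62 members (48.4%) were expressed, beside 52.9% of all rows and 64.2% of the rows with a symbol, and 24 stayed below 1 CPM in every library. The expressed members were 8 of 23 MMPs, 10 of 17 ADAMTSs, 9 of 18 ADAMs and all 3 measured TIMPs. Without library 2 the count was 34, the additions being RECK, ADAMTS6, ADAM19 and ADAM11. No count at all was found for 9 members (MMP3, MMP26, MMP27, ADAMTS10, ADAMTS16, ADAMTS18, ADAM2, ADAM7 and ADAM30), and 3 counts over the 4 libraries would correspond to 0.0363 CPM. This floor covers counting error only.

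Among secreted MMPs the collagenases and stromelysins were at a few CPM or less, MMP11 apart. MMP1, the interstitial collagenase, measured 1.87, 2.10, 1.98 and 2.62 CPM in libraries 1 to 4, with no library apart. The other collagenases, MMP8 and MMP13, had 2 and 12 counts in all, and MMP3 (stromelysin 1) had none. MMP10 (stromelysin 2) ranged from 0.273 to 0.950 CPM. MMP11, known as stromelysin 3 although it is activated inside the cell by furin-type convertases, measured 6.60, 13.3, 5.89 and 7.42 CPM. Its library 2 value lay above the other 3. In RefSeq's gene order for rhesus, 9 of these genes are direct neighbours on chromosome 14 (MMP7, MMP20, MMP27, MMP8, MMP10, MMP1, MMP3, MMP12 and MMP13). MMP1 was the only 1 of the 9 that was expressed, and 3 counts or fewer were found over all libraries for MMP3, MMP8, MMP12, MMP20 and MMP27.

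Both gelatinases, which degrade denatured collagen and the type IV collagen of basement membranes, were measured. MMP2 (gelatinase A, ENSMMUG00000004475) stood at 65.4, 58.05, 64.3 and 69.4 CPM, a mean of 64.3 ± 4.69 (SD, n = 4). With TMM the 4 values lie within a narrow range, library 2 being the lowest. With plain CPM, not scaled by TMM, the SD was 13.0 CPM. Library 2 then lay at -0.61 log2 units from the median of the others. MMP9 (gelatinase B, ENSMMUG00000016549) measured 0.819, 1.42, 0.899 and 0.588 CPM and passed 1 CPM in library 2 alone. MMP9 is made in quantity by neutrophils and macrophages, and of the 8 leukocyte markers 2 were expressed (LYZ and CD68), ITGAM was at 0, and PTPRC lay between 0.135 and 0.185 CPM. The neutrophil genes MPO and ELANE were, like MMP9, at their highest in library 2. MPO measured 0.0455, 1.85, 0.0899 and 0.136 CPM and ELANE 0.409, 0.925, 0.270 and 0.497 CPM, on 36 and 41 counts in all. CD68 was also highest there (9.07 CPM), whereas LYZ was lowest there, at 8.51, 5.49, 9.66 and 7.24 CPM. The 8 markers summed to 15.5, 17.95, 16.04 and 15.6 CPM. Their part in the MMP9 value was not tested.

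The remaining secreted MMPs were a mixed group of 8, of which 2 were expressed. MMP19, found in many tissues, measured 23.9, 36.3, 25.2 and 25.6 CPM, with library 2 apart and high. With plain CPM, unscaled, its library 2 value was only 0.07 log2 units above the median of the others. MMP21, known for its part in left-right patterning of the embryo, measured between 1.58 and 2.41 CPM. MMP28 (epilysin) was the least reproducible of the members with a mean of at least 1 CPM once library 2 was set aside, at 0.364 CPM in library 1, 2.92 in library 3 and 4.39 in library 4 next to 7.46 in library 2. It was therefore not called expressed, and passed that rule without library 1.

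Of the 6 membrane-type MMPs, 3 were expressed, all of the transmembrane kind. MMP14 (MT1-MMP, ENSMMUG00000013665), a collagenase at the cell surface that also activates the MMP2 precursor, stood at 151, 183, 154 and 151 CPM. Libraries 1, 3 and 4 differed by little, at 152 ± 1.74 CPM (SD, n = 3), and library 2 was higher by 0.28 log2 units over their median with TMM and lower by the same measure (-0.16) with plain CPM. MMP15 (MT2-MMP) measured 2.46, 3.21, 1.71 and 1.45 CPM. MMP16 (MT3-MMP) went the other way in library 2, with 25.6, 5.98, 27.6 and 20.6 CPM, so its library 2 value lay 4.11 times below the mean of the others. MMP24 (MT5-MMP, known from brain) reached 1 CPM in library 2 only, and the members held by a lipid anchor, MMP17 and MMP25, stayed at or below 0.449 CPM. MMP23, whose anchor is at its amino-terminal end, measured 1.09, 3.08, 0.809 and 0.588 CPM, and its mean of 1.39 ± 1.15 CPM fell to 0.83 ± 0.25 without library 2.

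**Figure D1:**
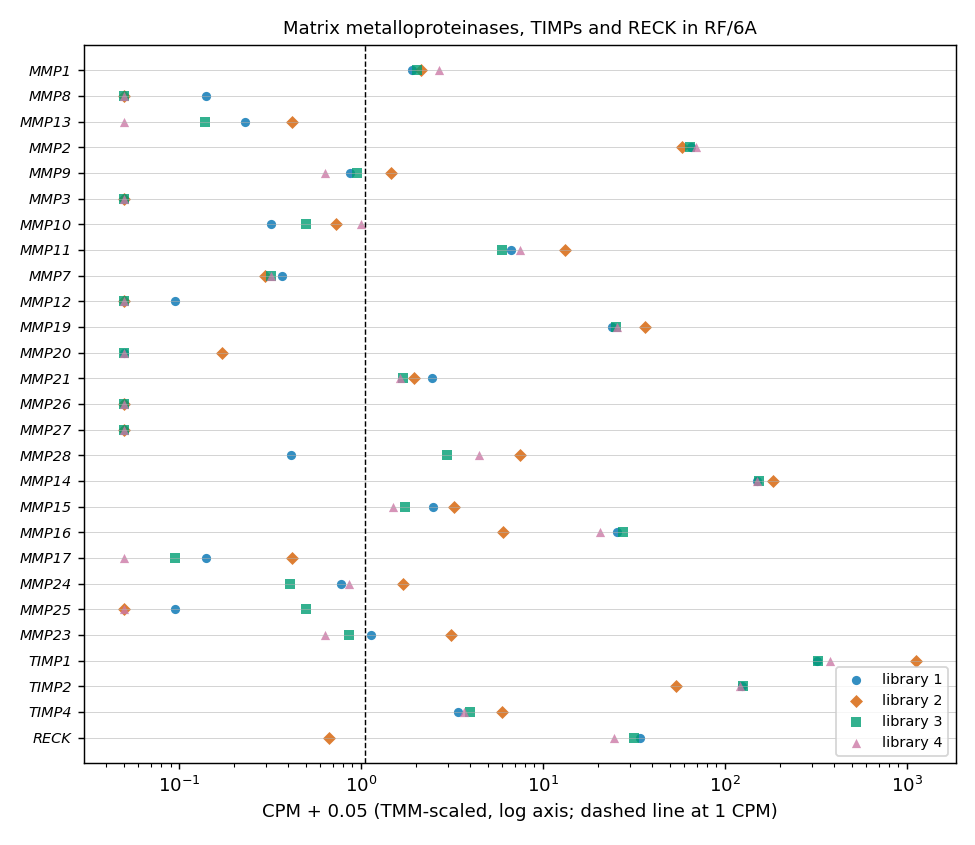
Symbols mark the MMP, TIMP and RECK genes in each of the 4 libraries, as TMM-scaled CPM + 0.05 on a log axis, with a dashed line at 1 CPM. MMP2, MMP14, MMP19, TIMP1 and TIMP2 lie right of the line in every library, MMP3, MMP26 and MMP27 sit at the left edge with no count, and the library 2 symbol of RECK lies at 0.617 CPM, far left of the other 3.

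Taken as counts, membrane-type MMPs held more than secreted ones in each library. The 16 secreted members summed to 102, 122, 104 and 113 CPM and the 6 membrane-type members to 179.6, 194, 184 and 173 CPM. The log2 ratio of secreted to membrane-type counts was -0.81, -0.67, -0.83 and -0.62, with a mean of -0.73 ± 0.10 (SD, n = 4) and -0.75 ± 0.11 without library 2. Library 2 lay within the range of the others. A single gene makes up most of each sum, since MMP2 supplied 47.6% to 63.97% of the secreted counts and MMP14 83.6% to 94.2% of the membrane-type counts. Because transcript lengths differ, this is a balance of counts, not of molecules.

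All 3 procollagen N-proteinases, which trim the amino-terminal propeptides of fibrillar procollagens, were expressed. ADAMTS14 measured 19.7, 7.53, 16.9 and 17.95 CPM, ADAMTS3, which also activates the lymphatic growth factor VEGFC, 6.60, 2.71, 7.10 and 5.16 CPM, and ADAMTS2 2.05, 1.11, 1.75 and 1.67 CPM. Library 2 was lowest for each of the 3, as it was for 48.0% of all genes that average 1 CPM or more. The BMP1 gene, whose product trims the other end of procollagen, measured between 46.4 and 60.8 CPM. With TMM its library 2 value lay at -0.05 log2 units from the median of the others. The related gene TLL1 was lowest in library 2, at 3.23, 0.493, 4.85 and 2.85 CPM.

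Of the proteoglycan-cleaving ADAMTS genes, 4 of 6 measured members were expressed. ADAMTS15 (ENSMMUG00000003301), which cleaves versican and aggrecan, stood at 161, 158, 172 and 177 CPM and supplied 44.7% to 65.97% of all ADAMTS counts. Its library 2 value lay at -0.12 log2 units from the median of the others with TMM and at -0.57 with plain CPM. ADAMTS1, a versican protease, measured 56.3, 30.2, 57.3 and 49.97 CPM, and its neighbour in gene order ADAMTS5, the aggrecanase of cartilage, measured 8.01, 6.17, 8.40 and 8.50 CPM. Of 3 measured chondrocyte markers 1 was expressed, COL2A1 at 6.28 to 19.1 CPM, while COMP had 11 counts and ACAN 2. ADAMTS9, another versican protease, stood much lower in library 2, with 69.7, 5.06, 64.6 and 57.6 CPM. Without that library it measured 63.99 ± 6.11 CPM (SD, n = 3). ADAMTS8, the direct neighbour of ADAMTS15 in gene order, had 16 counts in all, and ADAMTS20 had 2.

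The other ADAMTS genes were uneven. ADAMTS7, which cleaves the cartilage protein COMP, varied little with TMM, at 24.2, 24.1, 22.7 and 22.3 CPM. Its SD was 0.98 CPM with TMM and 3.03 with plain CPM. ADAMTS12, its closest relative, measured 2.96, 1.17, 2.43 and 2.08 CPM. ADAMTS6, linked to fibrillin microfibrils, measured 5.78, 0.493, 5.21 and 5.38 CPM and was expressed in all libraries but the second. ADAMTS13, the plasma protease that cuts von Willebrand factor, measured 2.46, 2.47, 1.98 and 1.09 CPM. ADAMTS17 stayed below 1 CPM, and ADAMTS10, ADAMTS16 and ADAMTS18 had no count.

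The ADAM genes whose products carry the catalytic zinc-binding motif hold the main sheddases, and 7 of 12 were expressed. ADAM10 (ENSMMUG00000017507), which cuts Notch receptors and cadherins, stood at 304, 47.9, 289.8 and 268 CPM. ADAM9, a widely expressed sheddase, stood at 275, 45.3, 289 and 260.1 CPM. ADAM17 (ENSMMUG00000012921), which releases tumour necrosis factor and ligands of the epidermal growth factor receptor, stood at 81.3, 7.83, 90.3 and 74.4 CPM. In each the library 2 value lay far below the other 3, by 5.996, 6.07 and 10.5 times against their means. ADAM12, known from growing muscle and stroma, was also lowest in library 2, with 64.9, 12.1, 66.9 and 51.9 CPM, and ADAM19, a neuregulin sheddase, had 14.3, 0.370, 12.2 and 13.7 CPM. ADAM19 rests on 6 counts in library 2.

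The opposite held for ADAM15 and ADAM8. ADAM15, an integrin-binding ADAM, measured 28.8, 67.9, 28.98 and 31.2 CPM, and ADAM8, known from leukocytes, 4.78, 8.57, 4.04 and 3.75 CPM. Both were above the other 3 libraries in library 2 and stayed so with plain CPM. ADAM21 was expressed at 2.92 to 4.01 CPM, and its near relative ADAM20 had 19 counts in all. Reads shared between these close copies cannot be told apart here.

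ADAMs without the catalytic motif act in adhesion, and 2 of 6 measured members were expressed. ADAM22, a receptor for secreted LGI proteins in the nervous system, measured 5.19, 2.47, 5.75 and 5.65 CPM. ADAM18, known from sperm, measured 6.28, 3.27, 6.83 and 6.60 CPM, while its neighbour in gene order ADAM2, also a sperm gene, had no count. The germ cell markers DDX4, DAZL, ACR and TNP1 summed to between 0.0617 and 0.318 CPM, with ACR and TNP1 at 0. ADAM11, a neuronal ADAM, passed 1 CPM in 3 libraries and ADAM23 in none.

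**Figure D2:**
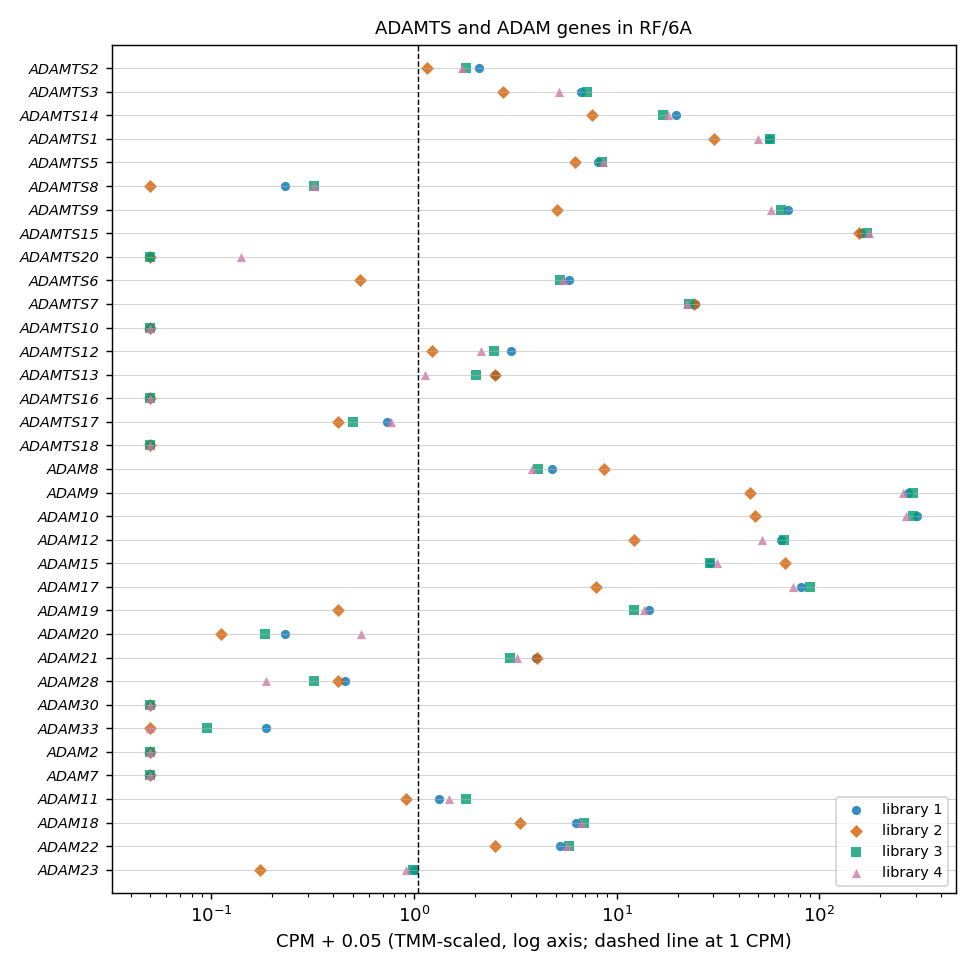
Symbols mark the ADAMTS and ADAM genes in each of the 4 libraries, as TMM-scaled CPM + 0.05 on a log axis, with a dashed line at 1 CPM. The library 2 symbols of ADAM9, ADAM10, ADAM12, ADAM17, ADAM19, ADAMTS6 and ADAMTS9 lie well left of a tight group of the other 3, and that of ADAM15 lies to the right.

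The inhibitors went both ways in library 2. TIMP1 (ENSMMUG00000011426), an inhibitor of most secreted MMPs that is weak against membrane-type ones, stood at 322, 1122, 327 and 379 CPM, a mean of 538 ± 391 (SD, n = 4) and of 343 ± 31.8 without library 2 (n = 3). TIMP2 (ENSMMUG00000005355), which inhibits MMP14 and also bridges it to the MMP2 precursor, stood at 124.6, 54.2, 125 and 121 CPM. TIMP4 measured 3.37, 5.92, 3.95 and 3.62 CPM. RECK (ENSMMUG00000022613), which restrains MMP2, MMP9 and MMP14, stood at 34.3, 0.617, 31.8 and 24.5 CPM. Libraries 1, 3 and 4 lay close together for all 4 inhibitors, whereas library 2 was above them for TIMP1 and TIMP4 and below them for TIMP2 and RECK. These 4 directions were the same with TMM, with DESeq2 size factors and with plain CPM. The RECK value of library 2 rests on 10 counts.

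The balance of TIMP to MMP counts followed TIMP1. The 3 TIMPs summed to 450.03, 1182, 456 and 504 CPM and the 23 MMPs to 283, 319, 288 and 287 CPM. Their log2 ratio was 0.67, 1.89, 0.66 and 0.81, with a mean of 1.01 ± 0.59 (SD, n = 4) and 0.72 ± 0.09 without library 2. TIMP1 supplied 71.6% to 75.2% of the TIMP counts in libraries 1, 3 and 4 and 94.9% in library 2. With TIMP1 left out, a choice made after the values were seen, the ratio was -1.14, -2.41, -1.16 and -1.20, so library 2 moved from the top of the range to the bottom. TIMP3 was not measured, and the sums lack it.

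The share of each family among the member counts also differed in library 2. In libraries 1, 3 and 4, ADAMs took 38.2% to 41.3% of these counts, TIMPs 23.5% to 26.7%, ADAMTSs 18.5% to 18.7%, MMPs 14.7% to 15.2% and RECK 1.30% to 1.79%. In library 2, TIMPs took 60.9%, MMPs 16.4%, ADAMTSs 12.3%, ADAMs 10.4% and RECK 0.0318%. The MMP share thus changed little between libraries, while the ADAM share was lower and the TIMP share higher in library 2 than in any other.

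**Figure D3:**
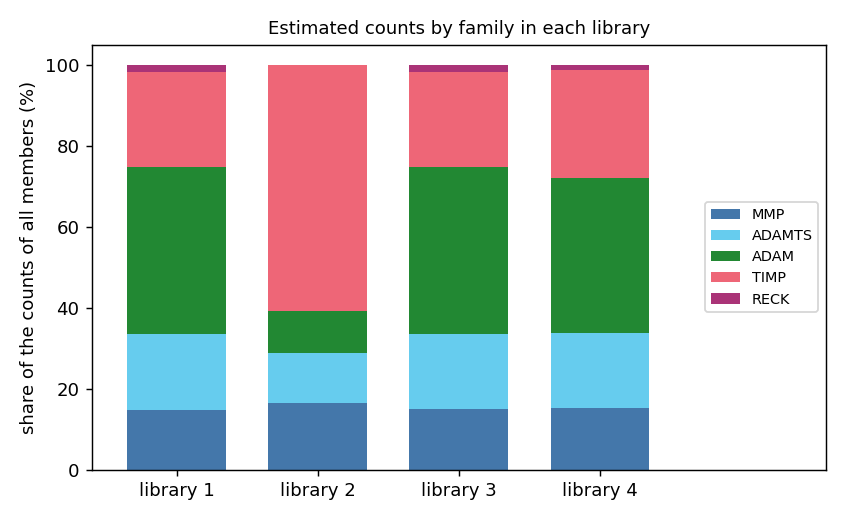
Stacked bars give the share, in percent, of the estimated counts of all 62 members held by each family in each library. The bars of libraries 1, 3 and 4 are alike, while in library 2 the TIMP part is 60.9% and the ADAM part 10.4%.

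Ratios between partner genes were taken within each library, which removes depth and scaling from them apart from the pseudocount of 0.5 CPM. Transcript length adds a constant to each log2 ratio if the mix of transcripts is the same in each library, which was not tested. Only the change of a ratio between libraries is read. Of 12 pairs listed, 9 had both genes measured. The MMP14 to TIMP2 ratio was 0.27, 1.75, 0.29 and 0.31 log2 units, and the MMP2 to TIMP2 ratio -0.92, 0.10, -0.96 and -0.80. Both were higher in library 2, by 1.45 and 0.99 over the mean of the others, where libraries 1, 3 and 4 spanned 0.04 and 0.16. The MMP14 to RECK ratio was 2.12, 7.36, 2.26 and 2.60, and the ADAM10 to TIMP1 ratio was -0.08, -4.54, -0.17 and -0.50. The MMP2 to MMP14 ratio changed less, at -1.20, -1.65, -1.25 and -1.11. The ADAM10 to ADAM17 ratio was 1.90, 2.54, 1.68 and 1.84, and the ADAMTS2 to ADAMTS14 ratio -2.98, -2.32, -2.95 and -3.09. The MMP2 to MMP9 and MMP9 to TIMP1 ratios rest on at most 23 MMP9 counts per library, and ranged from 4.93 to 6.01 and from -9.19 to -7.87.

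**Figure D4:**
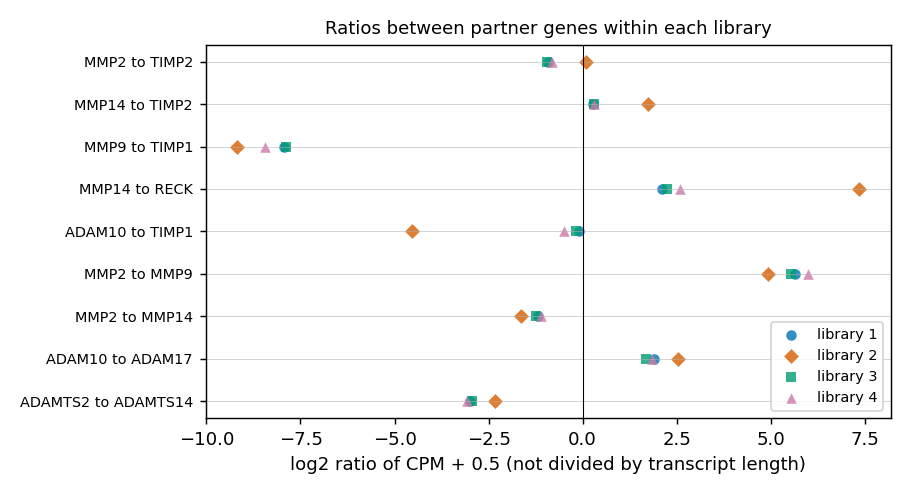
Each symbol is the log2 ratio of CPM + 0.5 between the genes of a pair in 1 of the 4 libraries. Libraries 1, 3 and 4 lie within 0.58 log2 units of each other for all 9 pairs, and library 2 lies farthest out for MMP14 to RECK (7.36) and ADAM10 to TIMP1 (-4.54).

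The spread of the members was close to that of the table. Of the 62 members, 36 had a mean of at least 1 CPM. Their median SD of log2(CPM + 0.5) was 0.49 over 4 libraries and 0.13 without library 2, beside 0.49 and 0.12 over the 12453 genes of the table with such a mean. Dixon's test set library 2 apart for 10 of the 36 members (27.8%) and no other library for any, beside 33.8% of all genes for any library. On the log2(CPM + 0.5) scale a library stood apart for 16 members (44.4%), beside 36.9% of all genes. Of the 10 set apart in CPM, the low ones were TIMP2, ADAMTS6, ADAM9, ADAM10, ADAM18 and ADAM19 (6 of 36, beside 11.2% of all genes). The high ones in CPM were TIMP1, MMP14, MMP19 and ADAM15 (4 of 36, beside 21.8%). Library 2 lay below the other 3 for 21 members (58.3%, beside 48.0% of all genes) and above them for 12 (33.3%, beside 43.8%). It lay more than 1 log2 unit below the median of the others for 13 members (36.1%, beside 26.8%). For 4 it lay more than 1 log2 unit above (11.1%, beside 19.4%). MMP23 is among the 12 and the 4, and averaged 1 CPM or more only through library 2 (0.83 CPM without it). The members' median log2 ratio of library 2 to the median of the others was -0.45, and that of all genes was -0.07.

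By family, library 2 was lower than the median of the others for 9 of 11 ADAMTS genes and 8 of 11 ADAM genes averaging 1 CPM or more, beside 52.0% of all genes, with medians of -0.81 and -1.05 log2 units. It was higher for 8 of 10 MMPs, beside 48.0% of all genes, with a median of 0.40. MMP23, among the 8, averaged 1 CPM or more only through library 2 (1.39 CPM, and 0.83 without it). All genes were filtered in the same way. With plain CPM, which moves the median of all genes to -0.49, the ADAMTS and ADAM counts were 11 of 11 and 9 of 11 lower, beside 64.1% of all genes, and the MMP count was 5 of 10 higher, beside 35.8%, with a median of -0.04. Plain CPM lowers every gene of library 2 alike. The sign of the MMP median thus depends on the scale, while this median, with MMP23 counted, lay above that of all genes on both scales. No test was made on these family values, and library 2 is a single library.

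**Figure D5:**
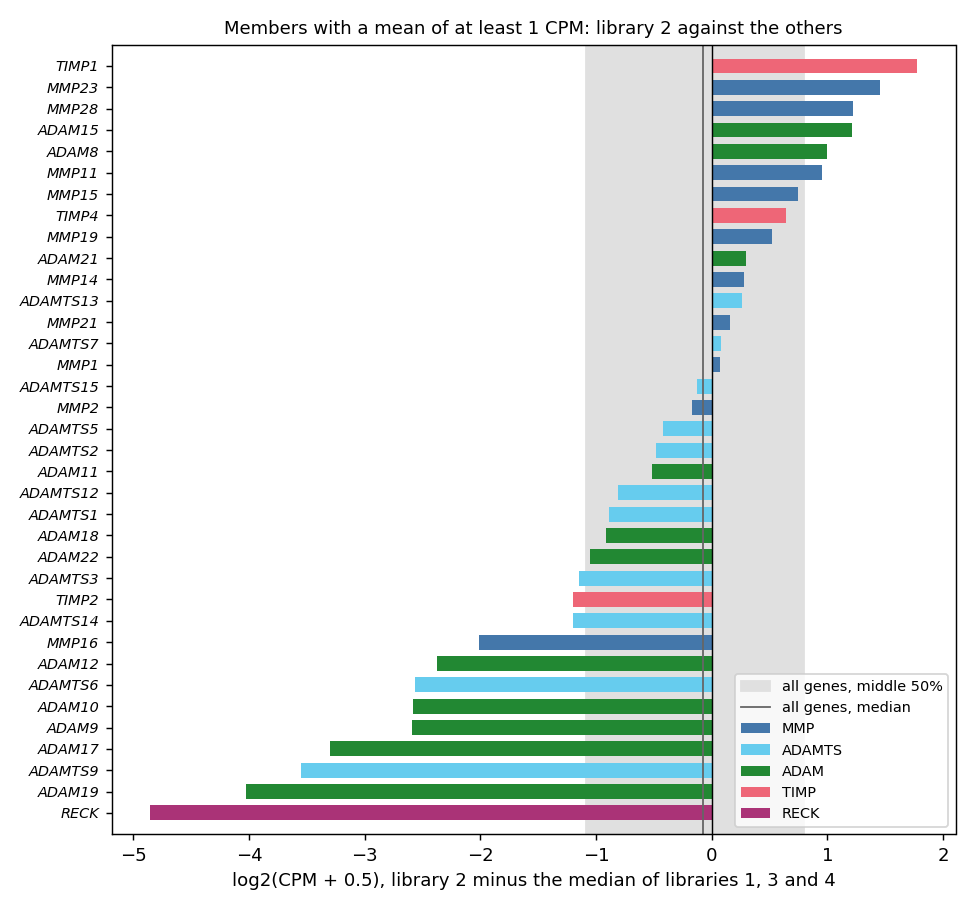
Bars give log2(CPM + 0.5) of library 2 minus the median of libraries 1, 3 and 4 for the 36 members with a mean of at least 1 CPM, coloured by family, over the middle 50% of all 12453 genes (grey, -1.09 to 0.80) and their median (line, -0.07). RECK, ADAM19, ADAMTS9 and ADAM17 reach from -4.85 to -3.29, and TIMP1 reaches 1.78.

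Genes that activate, anchor or oppose these proteases were taken from lists of 50 names, of which 46 were measured. The counts of expressed genes in these lists stand beside 64.2% of all rows with a symbol, and no list was tested against that share. The furin-type convertases, which activate MMP14, MMP11 and the ADAMs, had 3 of 4 members expressed, with FURIN at 58.2 to 74.9 CPM, PCSK7 at 8.64 to 12.8 and PCSK5 at 4.73 to 5.83 CPM. Plasminogen activation had 4 of 6, with the activators PLAT at 226 to 279.98 CPM and PLAU at 76.8 to 113 CPM and the urokinase receptor PLAUR at 31.3 to 57.0 CPM. Plasminogen itself (PLG) had no count. Library 2 differed from the median of the others by 0.34 log2 units for FURIN, -0.14 for PCSK5 and -0.51 for PCSK7. The difference was -0.19 for PLAT, -0.51 for PLAU, 0.69 for PLAUR and 1.40 for PLGRKT, a plasminogen receptor. For PCSK6 it was -2.06, but library 3 was lower still, the values being 3.87, 0.247, 0.225 and 2.62 CPM.

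Other inhibitors and clearance genes had 5 of 7 expressed. The clearance receptor LRP1 measured 377 to 625 CPM, TFPI2, a serine protease inhibitor of the matrix, 105 to 112 CPM, and PZP, a trapping inhibitor of the macroglobulin family, 52.1 to 61.8 CPM. A2M, its closest relative, matched no row, so the PZP count is uncertain. Among surface partners of MMPs 6 of 7 were expressed, with ITGB1 at 622 to 1747 CPM, CD44, which anchors MMP9 and MMP14, at 244 to 324, and BSG (EMMPRIN), an inducer of MMPs, at 154.5 to 241.5 CPM. Library 2 lay below the median of the others for ITGB1 (-1.35 log2 units), ITGAV (-4.19), ITGB3 (-3.41) and CLDN1 (-0.66). It lay above that median for CD44 (0.27), BSG (0.48) and LGALS3BP (1.07).

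Cofactors of ADAM10 and ADAM17 had 7 of 9 expressed. TSPAN5 and TSPAN14, tetraspanins that carry ADAM10, measured 20.1 to 45.1 and 12.5 to 28.4 CPM, both lowest in library 2. TSPAN15 and TSPAN17 of the same list were highest there. FRMD8, which stabilises the ADAM17 complex, measured 22.3 to 28.7 CPM. RHBDF2 (iRhom2), a partner of ADAM17, measured 25.02, 3.27, 34.01 and 17.4 CPM, lowest in library 2, whereas its relative RHBDF1 measured 19.3, 18.1, 17.5 and 15.5 CPM and FRMD8 was highest there. ADAMTS-like genes, which lack a protease domain, had 4 of 6 expressed, led in counts by ADAMTSL1 (2.34 to 15.7 CPM), THSD4 (1.79 to 11.7) and ADAMTSL5 (3.78 to 8.14). Astacin proteinases and their enhancers had 3 of 7, with PCOLCE, the enhancer of procollagen C-proteinase, at 154, 485, 157 and 178 CPM, PCOLCE2 at 112 to 132 and BMP1 as above.

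RefSeq's order places 14 of the 62 members across the span of another protein-coding gene, among them TIMP1 with SYN1, TIMP4 with SYN2 and PPARG, TIMP2 with CEP295NL, ADAM15 with DCST1 and MMP9 with CD40. Strandedness is not given in the sources used here, so reads from exons shared with such a neighbour could not be told apart.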

How the data were processed

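The authors deposited estimated counts per Ensembl rhesus gene, as whole numbers, and Salmon and DESeq2 are named without versions in the submitters' processing notes. Read length, strandedness, annotation release and genome build: not given in the sources used here. Such estimates divide ambiguous reads between transcripts, so near-identical genes carry an assignment error. Row identifiers were paired with symbols through a table of current Ensembl names (14654 of 21314 rows), and gene order came from RefSeq. Counts were scaled with TMM in edgeR 4.0.16 (R 4.3.3). Alternatives were DESeq2 1.42.0 size factors, plain CPM, other thresholds, edgeR's filterByExpr and leaving out each library.

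The planned division by coding length and the sign-flip tests on it were not made, because no lengths were used here, and ratios are given without tests. The members and lists were chosen with earlier results of these data known. Library values were given for fixed members, for the 3 members of each role with the most CPM, for members with 1 CPM in 3 libraries whose mean moves by over 1.5 times without a library, and, chosen after their values were seen, for ADAM8, ADAM12, ADAM15 and ADAM19. Of the lists of other pathway genes the 3 members with the most CPM were named. Outside that rule were PCSK6, RHBDF1, RHBDF2, PLG, PLGRKT, TLL1, TSPAN15, TSPAN17, ITGAV, ITGB3, CLDN1 and LGALS3BP. Markers of cell types were given as lists, with examples chosen after their values were seen. Levels of single genes carry SDs or library values, and Dixon's test was read as a description. A listed gene is not reported here. The code was tested on simulated counts in which a limited set of genes was changed in library 2. To pass, Dixon's test had to set apart a smaller share of the lowered genes than of the raised ones.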

Additional observations from a re-analysis of the deposited data

Results flagged for a closer look

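Dixon's test was run on 36 members in CPM and on 2 balances and 9 partner ratios given in log2 units. It set a library apart in 15 of these 47 values (31.9%), where about 1 in 20 is expected by chance. For the members alone, on the same scale as all genes, it did so for 10 of 36 (27.8%). The share was 33.8% of all genes that average 1 CPM or more. All 15 concern library 2, and several share genes, so these flags overlap in their data. The CPM of library 2 were low for ADAMTS6 (0.493), ADAM9 (45.3), ADAM10 (47.9), ADAM19 (0.370), ADAM18 (3.27) and TIMP2 (54.2). They were high for MMP19 (36.3), MMP14 (183), ADAM15 (67.9) and TIMP1 (1122). In log2 units library 2 was high for the TIMP against MMP balance (1.89) and for the ratios of MMP2 to TIMP2 (0.10), MMP14 to TIMP2 (1.75) and MMP14 to RECK (7.36), and low for ADAM10 to TIMP1 (-4.54). RECK and ADAM17 have larger ratios between library 2 and the others than most of these and were not set apart by the test. For single genes the test is made on the linear scale and divides by the whole range.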

How the results depend on the processing

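No paired analysis was possible because the libraries form a single group. The count of 30 expressed members stayed within 1.5 times under every scaling, threshold and filter tried, and was between 30 and 34 when each library was left out in turn, MMP28 joining without library 1. The number of members with a library apart was 10, and 16 when Dixon's test was made on log2(CPM + 0.5), where the share of all genes went from 33.8% to 36.9%. The TIMP to MMP balance of 1.01 turned to -1.48 without TIMP1, a choice made after seeing the data. Leaving out each library gave 0.72 to 1.12. The MMP2 to MMP9 ratio moved from 5.53 to 6.02 with a pseudocount of 0.1, since MMP9 is low. The means of MMP2, ADAMTS5, ADAMTS7 and ADAMTS15 moved beyond their SD without library 2, to 71.7, 8.97, 24.9 and 183 CPM, after scaling the other libraries again. On the scale used elsewhere here, without that new scaling, they were 66.4, 8.30, 23.1 and 170 CPM. Those values lay within the SD, so the move came with the new scaling. Division by coding or transcript length was not run. Depth limits the members with under 3 counts per library, which cannot be told from 0.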
